A study of Medicago truncatula with 18 samples.

Results

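A set of 174 genes of *Medicago truncatula*, of 50444 quantified, had more transcript in long days (LD) than in short days (SD) at dawn and less transcript in LD than in SD at ZT4. The members were chosen by their transcript abundance in TPM (a share of all transcripts of a library, scaled for gene length), as the mean of 3 libraries per group. With d the log2 of (LD + 1) over (SD + 1), a member had d of at least 1 at ZT0 and of at most -1 at ZT4, where ZT counts hours from lights on. The threshold at ZT0 was met by 1075 genes and that at ZT4 by 1109 genes. The rule set aside the clock gene *MtELF3a* (*Medtr3g103970*), the photoreceptor gene *MtFKF1* (*Medtr8g105590*) and the *FT-like* gene *MtFTa2* (*Medtr7g085020*), none of which met both thresholds. *MtELF3a* met only that at ZT0, with d of 2.57 at ZT0 and -0.67 at ZT4.

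The plants were of the accession Jester and had been vernalised as germinated seed. All grew in SD (8 h of light and 16 h of dark) for 10 days, after which the LD plants were moved to 16 h of light and 8 h of dark with an unchanged time of lights on. At ZT0 and ZT2 (experiment 1) plants were 13 days old, 3 days after the move for the LD group. At ZT4 (experiment 2) plants were 15 days old, 5 days after it. Each of the 6 groups had 3 biological replicates, and the RNA of a replicate came from 2 plants, each giving its earliest trifoliate leaf. Experiment 2 used another library kit, so at ZT4 the hour, the plant age, the days in LD and the kit cannot be told apart.

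The plant circadian clock is a set of genes that repress and activate each other over the day, and the light and dark of each day reset its phase. In leaves it times, together with light itself, the making of starch by day and its use by night, the readiness of the Calvin cycle at dawn, and the expression of genes for chloroplast proteins. Leaf clock genes also feed the photoperiod pathway, in which CONSTANS-like B-box proteins and the COP1/SPA1 ubiquitin ligase act on *FT-like* genes in *Arabidopsis thaliana*.

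The libraries held 18009808 to 19560647 estimated counts in experiment 1 and 20690658 to 23201592 in experiment 2, and replicates of a group had Pearson correlations of 0.967 to 0.993 across genes on the log2(TPM + 1) scale. As a check of the tissue label, 5 genes for the small chain of Rubisco summed to 95024 to 112588 TPM in LD libraries and 61582 to 82522 TPM in SD libraries, and 6 light-harvesting genes of photosystem I to 3947 to 5267 TPM in LD and 2884 to 3426 TPM in SD. Leghemoglobin, a root nodule marker, summed to at most 5.01 TPM over 2 genes. The leaf markers were thus higher in LD at all 3 times, and their part in the results was not tested. A leaf is a mixture of cells, so more RNA per cell and more cells of a type cannot be told apart.

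The values that chose the members are given as a description, with no test. The median d of the 174 members was 1.54 at ZT0 (range 1.00 to 6.03) and -1.63 at ZT4 (range -4.75 to -1.0), beside medians of 0.03 and -0.03 over all genes tested at those times. Every LD library lay above every SD library at ZT0 for 172 members, and 24.1% of the 28480 genes tested at ZT0 had this separation. At ZT4 every LD library lay below every SD library for 173 members, against 28.9% of 29011 genes. Since the rule used these contrasts, nothing is read from those counts.

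Summed over the members, transcript abundance was 9580 to 11038 TPM in LD libraries and 2150 to 2567 TPM in SD libraries at ZT0. At ZT2 the sums were 5704 to 6139 TPM in LD and 4907 to 5803 TPM in SD. At ZT4 they were 5082 to 5666 TPM in LD and 20102 to 21283 TPM in SD. By the rule itself, the members took a larger share of the LD transcriptome at dawn and of the SD transcriptome at ZT4. At ZT2, which the rule did not use, the sums overlapped. The mean TPM of a member over the 18 libraries had a median of 14.6, where all genes tested at ZT2 had a median of 2.996, and ran to 1071. A mean above 100 TPM was reached by 16 members.

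Near the thresholds, the methyltransferase gene *Medtr7g029350* (d of 1.00) and the lipase gene *Medtr4g016510* (1.01) were the last inside at ZT0. A plastidic ATP/ADP transporter gene, *Medtr2g102740* (0.997), and a ubiquitin-conjugating enzyme gene, *Medtr4g108080* (0.99), which met the ZT4 threshold, lay just outside. At ZT4 the receptor-like kinase gene *Medtr2g014650* (-1.0) and the carboxypeptidase gene *Medtr4g097590* (-1.01) were the last inside. A transcription termination factor gene, *Medtr7g081270*, and a linker histone gene, *Medtr1g070440* (-0.99 each), lay just outside.

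The rule used no library of ZT2, which lies between its timepoints, so the contrast of LD with SD at ZT2 was tested. All 174 members passed the filter there (a total count above 1 in the 6 libraries), although 10 of them averaged fewer than 10 counts. By the quasi-likelihood (QL) F test of edgeR, with p-values adjusted by Benjamini-Hochberg over all genes of the 3 timepoints, 44 members (25.3%) were higher in LD at an adjusted p under 0.05, where 12.8% of the 28151 genes tested were. A further 60 members (34.5%) were lower in LD, against 12.0% of all genes tested, and 70 members were not called. The members were therefore called in both directions. Members were more abundant than the genes tested (median of mean TPM 14.6 against 2.996), and scarce genes are harder to call. The shares were not matched for abundance, so how far they differ for that reason was not tested. Of the 104 calls, 86 were made in the same direction under all 14 alternative settings tried.

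Separation of libraries gave a similar picture. Every LD library lay above every SD library at ZT2 for 50 members, with 20.7% of all genes tested showing this, and below for 66 members, with 14.8% of all genes. The median d of the members at ZT2 was -0.09, against 0.02 over all genes tested, and their quartiles were -0.53 and 0.45 against -0.12 and 0.19. The added 1 TPM draws d of scarce genes toward 0, and the lists were not matched for abundance. The 9 pairings of an LD with an SD library gave medians of -0.20 to 0.06, a range that holds 0. These pairings share libraries and do not measure the error of a median taken from means of 3 libraries, so no difference from 0 is claimed. With each ZT2 library left out in turn, the median stayed below 0. It ran from -0.16 without replicate 2 of SD to -0.012 without replicate 3 of SD. These SD libraries stood apart in the members, replicate 3 being the highest of the SD libraries at ZT2 for 110 of 174 members and replicate 2 the lowest for 106.

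**Figure D1:**
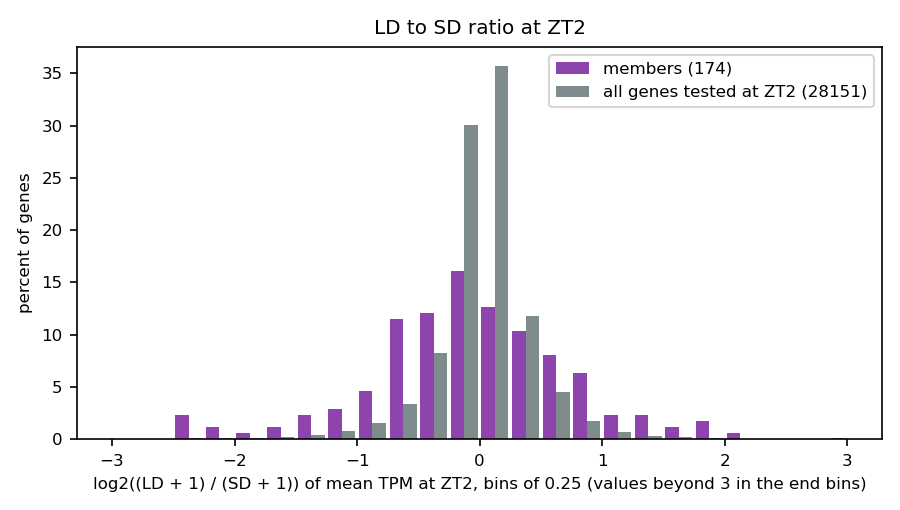
Share of genes (percent, vertical axis) by the log2 ratio of LD to SD at ZT2 (horizontal axis, bins of 0.25), for the 174 members and for the 28151 genes tested. Within 0.25 of 0 lay 28.7% of members and 65.8% of all genes, and 18.4% of members against 3.05% of all genes lay at or beyond a ratio of 1 in either direction. The lists were not matched for abundance, and the added 1 TPM draws scarce genes toward 0.

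At ZT2, d lay between its values at ZT0 and ZT4 for 170 of 174 members. The thresholds place any d between -1 and 1 there, and only 3.05% of all genes tested lay at or beyond 1 in either direction. Nothing is read from that count. From ZT0 to ZT2, both within experiment 1, mean TPM was lower at ZT2 for 157 members in LD and higher at ZT2 for 152 members in SD. The median log2 change over those hours was -0.60 in LD and 0.94 in SD, while all genes tested had -0.04 and -0.01. From ZT2 to ZT4, across the experiments, LD divided the members, with 80 lower at each successive time and 77 lower and then higher. In SD 151 members were higher at each successive time and 22 were lower at ZT2 than at ZT0 and then higher at ZT4. These changes share libraries with the rule and carry no test.

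The 3 sets of calls at ZT2 differed in shape. For the 44 members higher in LD at ZT2, the median change from ZT0 to ZT2 was -0.79 in LD and 0.17 in SD, on the log2 scale. For the 60 members lower in LD at ZT2 it was -0.37 in LD and 1.98 in SD. The 70 members not called had medians of -0.66 in LD and 0.78 in SD. In the set lower in LD, SD transcript was thus already well above its ZT0 level at ZT2, and in the set higher in LD it was near that level. The changes and the calls share the ZT2 libraries, so this is a description.

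**Figure D2:**
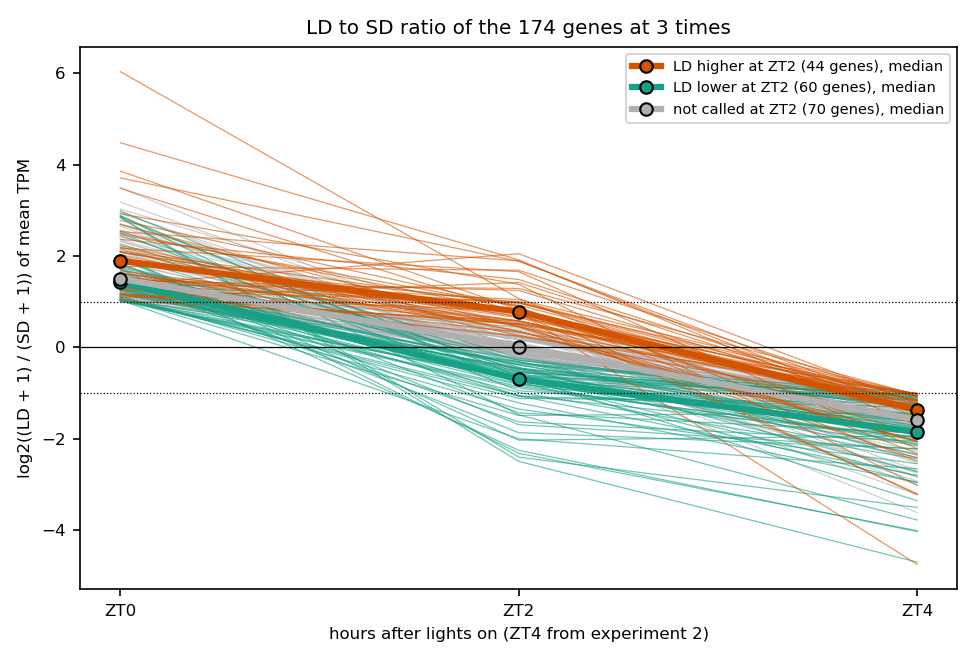
Log2 ratio of LD to SD mean TPM, with 1 added to each (vertical axis), at ZT0, ZT2 and ZT4 (horizontal axis). Thin lines are the 174 members, thick lines with points are medians of the 44 members higher in LD at ZT2, the 60 lower in LD and the 70 not called, and dotted lines mark the thresholds at 1 and -1. The medians at ZT2 are 0.78, -0.70 and 0.00, and those at ZT4 keep the same lowest set, at -1.37, -1.86 and -1.59.

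Of the 146 candidate photoperiod genes listed by the study, 3 were members: *MtELF4*, an *SPA1-like* gene and the B-box gene *MtCOLe*. *MtELF4* (*Medtr3g070490*) encodes an early flowering protein, which in *A. thaliana* joins ELF3 and LUX in the evening complex of the clock. It had 17.8, 15.9 and 13.2 TPM in LD libraries and 1.41, 1.08 and 1.09 TPM in SD libraries at ZT0. At ZT2 abundance was 5.37, 6.25 and 6.19 TPM in LD and 1.74, 1.65 and 1.60 TPM in SD. At ZT4 abundance was 1.51, 0.603 and 0.357 TPM in LD against 12.7, 13.8 and 14.7 TPM in SD. The libraries of the photoperiods did not overlap at any time, and LD was the higher until ZT2. At ZT2, *MtELF4* was higher in LD by a log2 fold change of 1.80 (standard error 0.25, edgeR QL adjusted p = 0.000195).

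The *SPA1-like* gene (*Medtr8g027985*) is related to a partner of COP1 in the ligase that marks CONSTANS for degradation in *A. thaliana*. At ZT0 its transcript stood at 9.66, 7.61 and 9.30 TPM in LD libraries, against 1.01, 0.524 and 0.683 TPM in SD libraries. At ZT2 the values were 10.3, 11.0 and 9.20 TPM in LD and 19.3, 18.7 and 23.4 TPM in SD. At ZT4 they were 14.4, 12.8 and 11.4 TPM in LD and 41.4, 41.3 and 42.8 TPM in SD. Abundance in LD thus stayed within 7.61 to 14.4 TPM over the morning, while that in SD was higher at each successive time. Unlike *MtELF4*, the gene was already lower in LD at ZT2, by a log2 fold change of -1.05 (standard error 0.09, edgeR QL adjusted p = 5.05e-06). *MtCOLe* (*Medtr3g082630*) was scarce, with 108, 74 and 105 counts in LD and 1, 0 and 0 counts in SD at ZT0, and 6, 4 and 5 counts in LD and 70, 57 and 91 counts in SD at ZT4. The ZT2 libraries held 11, 5 and 9 counts in LD and 2, 0 and 3 in SD, for a fitted log2 fold change of 2.21 (standard error 0.68, edgeR QL adjusted p = 0.0302) whose size is uncertain at so few counts. The call was lost with DESeq2 (adjusted p = 0.105), without replicate 1 or 2 of SD (0.0794 and 0.081 in edgeR) and without replicate 1 or 3 of LD (0.111 and 0.0819 in edgeR), with a range of 0.0073 to 0.111 over the alternatives.

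The other candidates put these members in context. At ZT2, 132 of the 146 were tested, of which 31 were higher and 41 lower in LD by the edgeR QL test. Of all 28151 genes tested there, 12.8% were higher and 12.0% lower. Of 21 circadian clock candidates, 20 were tested, with 5 higher and 10 lower. A d of at least 1 at ZT0 was reached by 5 clock candidates and a d of at most -1 at ZT4 by 10, and *MtELF4* was the clock candidate that had both. Of its likely partners in the evening complex, *MtELF3a* was higher in LD at ZT2 as well. The log2 fold change of *MtELF3a* was 1.98 (standard error 0.24, edgeR QL adjusted p = 7.88e-05). *MtLUXb* was lower (-1.12, standard error 0.09, edgeR QL adjusted p = 4.25e-06), and *MtLUXa*, *MtELF3b* and the *ELF3-like* gene *Medtr8g015480* were not called. The *ELF4-like* candidates *Medtr8g020200* (-1.20) and *Medtr2g041310* (-0.53) were lower in LD, and *Medtr4g125590* was not called. Among 42 CCT and B-box candidates 7 reached the first threshold and 4 the second, and *MtCOLe* alone both. *Medtr2g098880*, annotated as FAR-RED impaired response-like, a family that acts in phytochrome A signalling in *A. thaliana*, is no candidate but a member. It had 4.34, 3.57 and 4.63 TPM in LD and 5.33, 5.88 and 7.18 TPM in SD at ZT2, where it was lower in LD (log2 fold change -0.58, standard error 0.15, edgeR QL adjusted p = 0.0126). Its call was lost without replicate 3 of SD or replicate 1 of LD, with a highest adjusted p of 0.0643 over the alternatives of edgeR and DESeq2.

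The annotation keywords placed few members in regulatory groups. The keyword group headed transcription factors and DNA-binding proteins took 5 members. It includes *MtELF4* and the RING-H2 zinc finger gene *Medtr3g082510*, whose annotations do not name DNA binding, so the heading is wider than its words. Kinases and phosphatases took 9, oxidoreductases 10, heat shock and stress proteins 6, chloroplast and photosynthesis 5, and transporters 3. Sugar and cell wall enzymes took 3, hormone-related proteins 2 and ubiquitin ligase proteins 1. A further 31 were uncharacterised and 101 matched no keyword. Because the keywords left most members out, 50 members were sorted by hand into 5 roles from their annotation. Their values had already been seen, so the counts by role below support nothing beyond themselves, also where they are stable over the alternatives. Of the 28151 genes tested at ZT2, 12.8% were higher in LD and 12.0% lower.

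Starch and sugar metabolism took 12 members, of which 8 were lower and 2 higher in LD at ZT2 by the edgeR QL test (6 to 8 lower and 1 to 2 higher over the alternatives). The median d of the 12 was 1.92 at ZT0, -0.48 at ZT2 and -2.33 at ZT4. They include enzymes for several steps of starch breakdown in leaves at night. Alpha-glucan water dikinase phosphorylates the granule surface, beta-amylase and alpha-1,6-glucosidase cut the chains and branches, and DPE2 uses the maltose that reaches the cytosol.

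The alpha-glucan water dikinase gene (*Medtr8g069760*) had 18.6, 16.9 and 15.3 TPM in LD libraries and 3.24, 2.54 and 2.39 TPM in SD libraries at ZT0. Its level at ZT2 was 14.3, 16.9 and 16.5 TPM in LD and 17.8, 18.9 and 28.9 TPM in SD. The ZT4 libraries held 15.5, 11.8 and 10.3 TPM in LD and 86.6, 89.2 and 88.6 TPM in SD. The LD values thus varied little while the SD values spanned a wide range. The difference at ZT2 was small, with a log2 fold change of -0.49 (standard error 0.15, edgeR QL adjusted p = 0.0275), and it did not pass with DESeq2 or without replicate 2 or 3 of SD or replicate 1 of LD (range of adjusted p 0.000987 to 0.169 over the alternatives).

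*DPE2* (*Medtr7g088740*), for a cytosolic glucanotransferase, had 42.3, 45.6 and 38.4 TPM in LD and 7.47, 5.46 and 6.16 TPM in SD at ZT0. At ZT2 its abundance was 44.4, 48.7 and 45.1 TPM in LD and 61.1, 58.6 and 79.4 TPM in SD. At ZT4 it was 26.3, 19.99 and 20.3 TPM in LD and 99.7, 96.6 and 101 TPM in SD. *DPE2* was lower in LD at ZT2 by a log2 fold change of -0.56 (standard error 0.10, edgeR QL adjusted p = 0.00125). The beta-amylase gene (*Medtr5g013640*) had 3.47, 3.05 and 4.32 TPM in LD and 3.13, 3.56 and 5.19 TPM in SD at ZT2, where the photoperiods overlapped and no difference was called (log2 fold change -0.17, standard error 0.18, edgeR QL adjusted p = 0.543). At ZT0 it had 9.03, 10.4 and 9.21 TPM in LD against 1.96, 1.45 and 1.502 TPM in SD, and at ZT4 1.24, 1.09 and 0.720 TPM in LD against 16.0, 18.5 and 19.0 TPM in SD. Mean beta-amylase transcript in LD was lower at each successive time, as was that of the dikinase, while mean *DPE2* transcript in LD was higher at ZT2 than at ZT0 and lower at ZT4. The debranching enzyme gene *Medtr1g090693*, of the pullulanase type, was higher in LD at ZT2 (5.01, 6.48 and 6.24 TPM in LD and 3.87, 3.45 and 4.01 TPM in SD), with a log2 fold change of 0.61 (standard error 0.11, edgeR QL adjusted p = 0.00128).

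The alpha-glucan phosphorylase gene (*Medtr3g462340*), for an enzyme that releases glucose 1-phosphate from glucan chains, was among the 5 members with the largest drop in d from ZT0 to ZT4. It had 22.9, 16.8 and 25.7 TPM in LD and 1.99, 1.96 and 2.31 TPM in SD at ZT0. At ZT2 abundance was 14.5, 17.3 and 13.6 TPM in LD and 39.9, 38.1 and 53.5 TPM in SD. By ZT4 the level was 15.7, 13.4 and 12.9 TPM in LD and 200.3, 199 and 215 TPM in SD. In SD the gene was thus far higher at each successive time, while in LD it varied little. It was lower in LD at ZT2 (log2 fold change -1.56, standard error 0.12, edgeR QL adjusted p = 3.55e-06).

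A gene of the phosphoglucomutase/phosphomannomutase family (*Medtr4g084270*) had the lowest log2 fold change at ZT2 of all members. Phosphoglucomutase interconverts glucose 1-phosphate and glucose 6-phosphate, but the annotation does not tell which activity of the family the product has. The gene had 2.09, 2.45 and 1.93 TPM in LD and 14.2, 12.1 and 17.9 TPM in SD at ZT2, for a log2 fold change of -2.80 (standard error 0.13, edgeR QL adjusted p = 1.41e-07). At ZT0 it had 4.80, 3.54 and 5.85 TPM in LD and 0.25, 0.614 and 0.373 TPM in SD. At ZT4 abundance was 6.52, 4.80 and 4.41 TPM in LD and 102, 96.6 and 101 TPM in SD. The gene was therefore near a few TPM at every time in LD and varied mostly in SD. Glucose-1-phosphate adenylyltransferase makes ADP-glucose, the donor for starch synthesis, and so belongs to the making of starch and not to its breakdown. Its gene (*Medtr5g097010*) had 57.4, 50.8 and 61.8 TPM in LD and 15.2, 14.0 and 16.1 TPM in SD at ZT0. The ZT2 libraries held 56.9, 59.1 and 49.6 TPM in LD and 172, 163 and 208 TPM in SD. The ZT4 libraries held 90.3, 73.4 and 70.2 TPM in LD and 372, 359 and 373 TPM in SD. The gene was lower in LD at ZT2 by a log2 fold change of -1.74 (standard error 0.09, edgeR QL adjusted p = 2.63e-07).

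**Figure D3:**
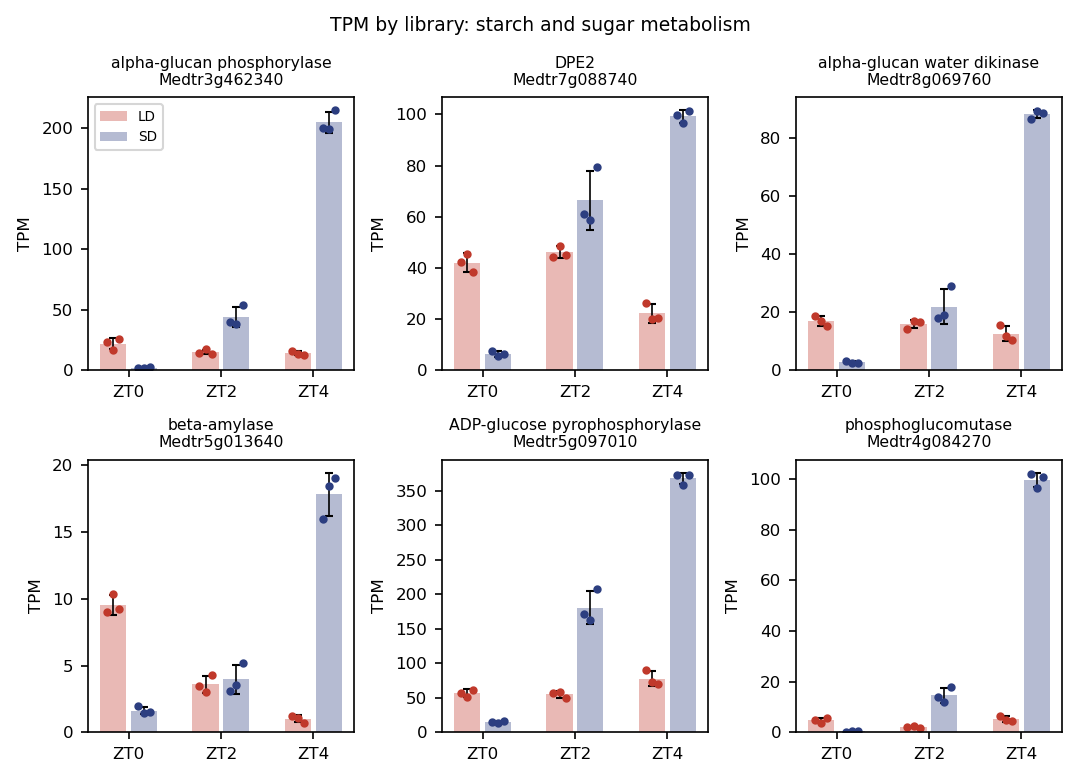
Transcript abundance (TPM, vertical axis) of 6 members of starch and sugar metabolism at ZT0, ZT2 and ZT4 (horizontal axis), with LD bars left of SD bars. The panel headed phosphoglucomutase is *Medtr4g084270*, annotated to the phosphoglucomutase/phosphomannomutase family. Bars are means of 3 libraries, points the libraries and error bars standard deviations. In SD the bar is higher at each successive time in all 6 panels, and at ZT2 the LD libraries lie below the SD libraries in all panels but that of beta-amylase, where they overlap.

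Of the other members with this role, those for a pfkB family carbohydrate kinase (*Medtr5g044990*) and an alpha-glucosidase (*Medtr5g057990*) were lower in LD at ZT2, with log2 fold changes of -1.05 and -0.86. The soluble inorganic pyrophosphatase gene (*Medtr8g077180*), whose product removes the pyrophosphate that ADP-glucose synthesis releases, was lower at an edgeR QL adjusted p of 0.0465 and kept its call in 8 of 14 alternatives (range 0.00293 to 0.186), losing it without replicate 1 or 3 of either photoperiod. The fructose-bisphosphate aldolase gene (*Medtr5g096670*) was among the most abundant members, at 571, 351 and 692 TPM in LD and 179, 151 and 192 TPM in SD at ZT0, and 243, 223 and 201 TPM in LD and 1204, 1202 and 1194 TPM in SD at ZT4. Its level at ZT2 was 238, 316 and 271 TPM in LD and 209, 178 and 203 TPM in SD and was higher in LD (log2 fold change 0.47, standard error 0.10, edgeR QL adjusted p = 0.00481). Without replicate 2 of SD the adjusted p was 0.0522 in edgeR, with a range of 9.58e-05 to 0.0522 over the alternatives. An aldose 1-epimerase gene (*Medtr7g009930*) was under 1 TPM in every library at ZT2, where the photoperiods overlapped, and was not called.

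Photosynthesis took 10 members, of which 6 were higher and 2 lower in LD at ZT2 by the edgeR QL test, and these counts were the same under every alternative. The median d was 2.77 at ZT0, 0.75 at ZT2 and -1.73 at ZT4. The *CP12-1* gene (*Medtr1g087030*), whose product holds Calvin cycle enzymes inactive in the dark, was the most abundant member. It had 1297, 1117 and 1268 TPM in LD and 139, 119 and 146 TPM in SD at ZT0. At ZT2 abundance was 752, 871 and 769.9 TPM in LD and 731, 712 and 817 TPM in SD. By ZT4 the level was 852, 784 and 769 TPM in LD and 2506, 2765 and 2855 TPM in SD. The photoperiods overlapped at ZT2, with no call there (log2 fold change 0.09, standard error 0.08, edgeR QL adjusted p = 0.512).

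The gene for Ccs1 (*Medtr4g069080*), which takes part in the assembly of c-type cytochromes of the thylakoid, was among the 3 members with the highest log2 fold change at ZT2. It had 35.2, 30.4 and 43.0 TPM in LD and 0.523, 0.489 and 0.994 TPM in SD at ZT0. The ZT2 libraries held 13.0, 15.6 and 12.5 TPM in LD and 2.84, 2.95 and 2.89 TPM in SD, for a log2 fold change of 2.20 (standard error 0.11, edgeR QL adjusted p = 2.14e-07). At ZT4 abundance was 6.36, 8.21 and 8.27 TPM in LD and 26.9, 25.1 and 28.8 TPM in SD. Its level was lower at each successive time in LD and higher at each in SD. The gene *Medtr4g010140*, named for the rise of chlorophyll fluorescence after illumination, had 307, 309.6 and 263 TPM in LD and 66.8, 59.5 and 66.9 TPM in SD at ZT0. Its level at ZT2 was 159, 172 and 166 TPM in LD and 58.3, 39.8 and 57.4 TPM in SD, and at ZT4 96.7, 76.4 and 67.3 TPM in LD and 374, 365 and 393 TPM in SD. It was higher in LD at ZT2 (log2 fold change 1.65, standard error 0.10, edgeR QL adjusted p = 7.83e-07).

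Among the rest of the role, a light-regulated protein gene (*Medtr7g084000*) had 873, 757 and 900 TPM in LD and 386, 319 and 358 TPM in SD at ZT0. It had 384, 447 and 412 TPM in LD and 217, 194 and 207 TPM in SD at ZT2, and 250, 234 and 225 TPM in LD and 537, 536 and 535 TPM in SD at ZT4. Its log2 fold change at ZT2 was 0.97 (standard error 0.08, edgeR QL adjusted p = 4.19e-06). Also higher in LD at ZT2 were the genes for a 4Fe-4S ferredoxin (*Medtr2g034140*, a log2 fold change of 2.19), an NDH-dependent cyclic electron flow protein (*Medtr6g032880*, 0.95) and a Rubisco methyltransferase (*Medtr6g023320*, 0.59). Lower in LD were *Medtr2g024300* (-0.85), for RbcX, a chaperone of Rubisco assembly, and *Medtr4g079850* (-0.84), for a protein related to ATP synthase I. RbcX had 23.9, 18.6 and 14.4 TPM in LD against 145, 157 and 160.4 TPM in SD at ZT4. The chlorophyllase gene (*Medtr1g041390*) was not called at ZT2. Genes of the role were thus called in both directions within the same leaves.

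**Figure D4:**
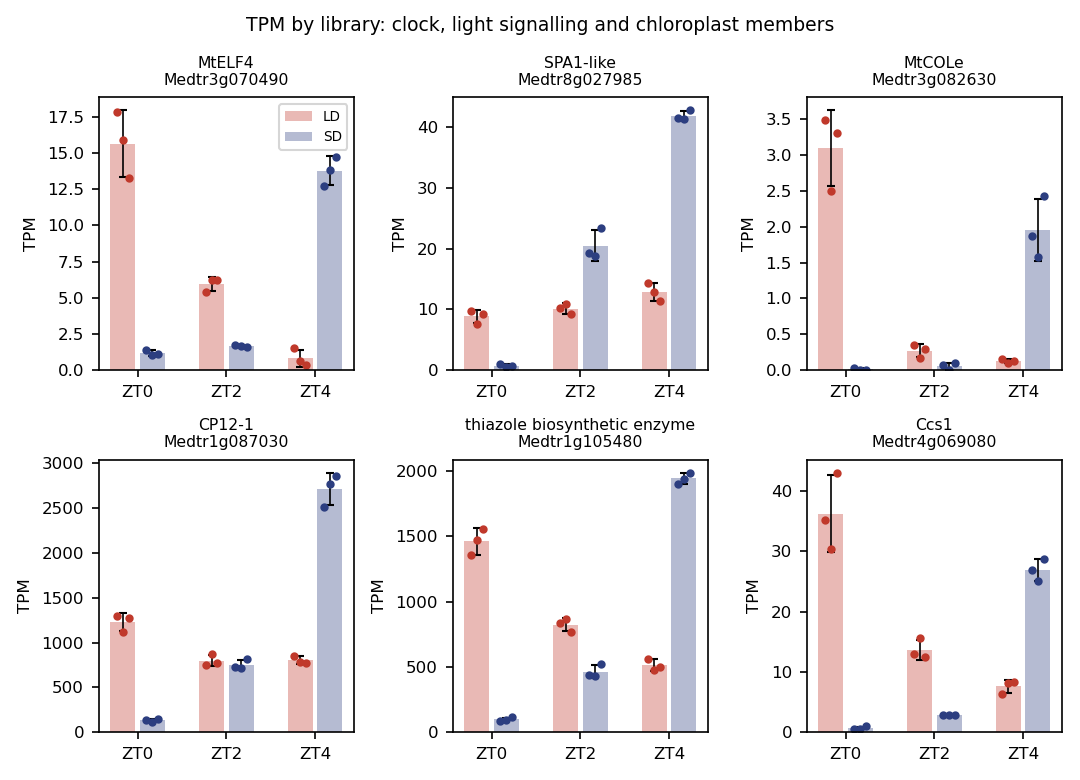
Transcript abundance (TPM, vertical axis) of *MtELF4*, the *SPA1-like* gene, *MtCOLe*, *CP12-1*, the thiazole biosynthetic enzyme gene and *Ccs1* at ZT0, ZT2 and ZT4 (horizontal axis), with LD bars left of SD bars. Bars are means of 3 libraries, points the libraries and error bars standard deviations. At ZT2 the LD libraries lie above the SD libraries for *MtELF4*, *MtCOLe*, the thiazole gene and *Ccs1*, below them for the *SPA1-like* gene, and among them for *CP12-1*.

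Organelle gene expression took 18 members, with 4 higher and 6 lower in LD at ZT2 by the edgeR QL test and a median d of 1.56 at ZT0, 0.12 at ZT2 and -1.33 at ZT4. RNA polymerase sigma factors, which direct the plastid polymerase to its promoters, had 2 members that moved in opposite directions at ZT2. *Medtr3g033150* had 22.4, 20.8 and 17.95 TPM in LD and 11.5, 11.3 and 12.0 TPM in SD, a log2 fold change of 0.77 (standard error 0.11, edgeR QL adjusted p = 0.000321). *Medtr7g101840* had 7.78, 7.38 and 8.28 TPM in LD and 9.51, 9.59 and 10.0 TPM in SD, a log2 fold change of -0.35 (standard error 0.08, edgeR QL adjusted p = 0.00587). A plastid transcriptionally active protein gene (*Medtr1g086000*) was higher in LD at ZT2, with a log2 fold change of 1.09. Of 5 genes for pentatricopeptide repeat proteins, which bind organelle transcripts, 1 was called. This gene, *Medtr1g112240*, had 1.26, 1.26 and 1.83 TPM in LD and 4.80, 3.54 and 3.97 TPM in SD at ZT2, and was lower in LD by a log2 fold change of -1.54 (standard error 0.17, edgeR QL adjusted p = 3.66e-05).

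Genes for parts of the organelle ribosome and its upkeep lay on both sides at ZT2. The ribosomal protein gene *Medtr4g068770* was higher in LD (log2 fold change 0.43), with 36.9, 38.2 and 36.3 TPM in LD and 27.7, 23.0 and 30.3 TPM in SD. The S16-like gene *Medtr2g039750* (-0.51), the GTP-binding protein gene *Medtr3g109540* (-0.45) and the tRNA modification GTPase gene *Medtr3g073790* (-0.78) were lower. *Medtr6g008410*, for CRS1, which splices a group II intron of the maize chloroplast, was also lower in LD (log2 fold change -1.12, standard error 0.10, edgeR QL adjusted p = 5.85e-06). The ribosome silencing factor gene *Medtr2g069470* was called higher (edgeR QL adjusted p = 0.0334) in the test as reported and in 6 of 14 alternatives (range 0.0238 to 0.226), not with DESeq2 and not without any 1 of the SD libraries or replicate 1 or 3 of LD. The RSH1 gene (*Medtr7g108940*), for an enzyme that handles the alarmone ppGpp, had 38.7, 35.4 and 39.0 TPM in LD and 5.43, 4.24 and 5.16 TPM in SD at ZT0, and overlapped between the photoperiods at ZT2.

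RNA-binding proteins of the RRM type had 6 members. Of these, *Medtr4g070080*, *Medtr4g070140* and *Medtr4g070190* lie close together by their identifiers, with 3 and 2 other identifiers between successive members. *Medtr4g070080* had 189, 210.0 and 157 TPM in LD and 16.0, 11.0 and 20.2 TPM in SD at ZT0. At ZT2 abundance was 110, 115 and 119 TPM in LD and 54.0, 68.8 and 80.6 TPM in SD, and was higher in LD (log2 fold change 0.72, standard error 0.13, edgeR QL adjusted p = 0.00102). The ZT4 libraries held 86.4, 77.1 and 65.7 TPM in LD and 664, 671 and 802 TPM in SD. Its neighbour *Medtr4g070140* went the other way at ZT2, with 26.1, 27.8 and 27.0 TPM in LD and 59.9, 58.1 and 73.6 TPM in SD (log2 fold change -1.33, standard error 0.10, edgeR QL adjusted p = 2.34e-06). *Medtr4g070190* was scarcer and was not called at ZT2. In SD at ZT4 the 3 neighbours stood at 664 to 802, 438 to 453 and 32.7 to 35.5 TPM. Reads that fit more than 1 of these related transcripts were divided by Salmon, so the split among them is less certain than their sum. Elsewhere *Medtr4g081520* and *Medtr4g109540* were lower in LD at ZT2 and *Medtr1g064230* was not called.

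Members outside these roles include some of the most abundant. The thiazole biosynthetic enzyme gene (*Medtr1g105480*), for a step of thiamine synthesis, had 1355, 1469 and 1556 TPM in LD and 89.3, 94.2 and 116 TPM in SD at ZT0. The ZT2 libraries held 839, 867 and 767 TPM in LD and 442, 429 and 522 TPM in SD, and was higher in LD (log2 fold change 0.80, standard error 0.08, edgeR QL adjusted p = 2.73e-05). By ZT4 the level was 562, 477 and 501 TPM in LD and 1897, 1939 and 1985 TPM in SD. Its course resembled that of *CP12-1* with LD still above SD at ZT2. A gene for RALF, a secreted signalling peptide (*Medtr7g015340*), had 635, 643 and 555 TPM in LD and 90.1, 64.1 and 82.2 TPM in SD at ZT0, and 355, 307 and 288 TPM in LD and 967, 1070.0 and 1096 TPM in SD at ZT4. At ZT2 it overlapped, with 379.8, 381.7 and 391.7 TPM in LD and 394.9, 334.9 and 428.6 TPM in SD and no call (edgeR QL adjusted p = 0.76). The low temperature and salt responsive gene *Medtr4g130660* had 206, 204 and 206 TPM in LD and 153, 124 and 135 TPM in SD at ZT2 (log2 fold change 0.55, standard error 0.08, edgeR QL adjusted p = 0.000182).

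The gene *Medtr2g041550*, for the auxin-binding protein ABP19a, had the largest d at ZT0. It had 106, 50.4 and 237 TPM in LD and 0.698, 0.823 and 1.52 TPM in SD at ZT0, a wide spread among the LD libraries that still left them far above SD. Its level at ZT2 was 51.0, 58.8 and 26.7 TPM in LD and 19.99, 26.6 and 16.8 TPM in SD (log2 fold change 1.07, standard error 0.25, edgeR QL adjusted p = 0.00715). The lowest LD library and the highest SD library nearly met, and the call was lost without replicate 1 or 3 of SD or replicate 1 of LD (adjusted p of 0.0703, 0.0658 and 0.0666 in edgeR) and in the fit of all 18 libraries, with a range of 3.46e-06 to 0.0703 over the alternatives. At ZT4 abundance was 44.0, 64.9 and 63.7 TPM in LD and 256, 302 and 319 TPM in SD. *Medtr3g462220*, a maternal effect embryo arrest gene, had the lowest d at ZT4, with 1.92, 1.09 and 1.16 TPM in LD and 59.7, 57.9 and 72.5 TPM in SD. At ZT2 it was under 2 TPM in all libraries, and its call of higher in LD (edgeR QL adjusted p = 0.0108) was lost with DESeq2 (0.0767, with a range of 0.0102 to 0.0767).

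Some of the widest swings belonged to genes of unknown function. *Medtr4g082883*, for a hypothetical protein, had 27.0, 15.6 and 35.2 TPM in LD and 3.12, 1.33 and 3.86 TPM in SD at ZT0. At ZT2 abundance was 4.95, 6.92 and 7.06 TPM in LD and 36.1, 33.6 and 50.9 TPM in SD. The ZT4 libraries held 51.8, 24.4 and 19.1 TPM in LD and 829, 838 and 886 TPM in SD. The difference at ZT2 was a log2 fold change of -2.69 (standard error 0.20, edgeR QL adjusted p = 2.26e-06), and the adjoining identifier among those quantified, *Medtr4g082900*, was also lower in LD there (-2.59). *Medtr4g039540*, another hypothetical protein, had 1.399, 4.08 and 3.05 TPM in LD and 16.8, 15.3 and 25.9 TPM in SD at ZT2 (log2 fold change -2.79, standard error 0.30, edgeR QL adjusted p = 3.3e-05). *Medtr8g069835*, also hypothetical, behaved in the opposite way at ZT2, with 90.7, 144 and 117 TPM in LD and 29.9, 19.9 and 32.8 TPM in SD (log2 fold change 2.06, standard error 0.23, edgeR QL adjusted p = 3.88e-05). In SD it was lower at ZT2 than at ZT0, where it had 147, 163 and 171 TPM, unlike most members. The highest log2 fold change at ZT2, 2.50, was that of a sesquiterpene synthase gene, *Medtr6g039440*, at 3.97, 2.65 and 2.71 TPM in LD and 0.601, 0.352 and 0.661 TPM in SD (standard error 0.23, edgeR QL adjusted p = 8.98e-06).

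The words transcription factor, DNA-binding, zinc finger, F-box, kelch and response regulator matched the annotation of 4 members, *MtCOLe* among them, and the keyword group of 5 given above also holds *MtELF4* by the words early flowering. The YbaB/EbfC DNA-binding family gene (*Medtr4g130730*) had 45.8, 54.8 and 37.52 TPM in LD and 15.3, 15.3 and 16.8 TPM in SD at ZT2 and was higher in LD (log2 fold change 1.51, standard error 0.13, edgeR QL adjusted p = 6.37e-06). The C2H2-like zinc finger gene *Medtr4g081420* had 4.90, 4.69 and 4.13 TPM in LD and 3.03, 2.37 and 2.82 TPM in SD (log2 fold change 0.71, standard error 0.12, edgeR QL adjusted p = 0.00106). The RING-H2 gene *Medtr3g082510* had 6.001, 4.71 and 6.21 TPM in LD and 6.29, 6.90 and 7.81 TPM in SD and was not called (edgeR QL adjusted p = 0.172). The ovate transcriptional repressor gene *Medtr4g028930*, which those words do not match and which is named after its values were seen, had 10.8, 10.6 and 9.80 TPM in LD and 16.6, 14.6 and 17.4 TPM in SD and was lower in LD (log2 fold change -0.68, standard error 0.09, edgeR QL adjusted p = 0.000194). In the keyword group of 5, 4 members were higher in LD at ZT2, 0 were lower and 1 was not called. Of the 28151 genes tested there, 12.8% were higher and 12.0% lower. *MtCOLe*, 1 of the 4, kept its call in 8 of the 13 alternatives in which it was tested. With so few genes, no direction of the group is claimed. The ovate gene lies outside that group and does not alter its counts.

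Of the members at the thresholds, *Medtr7g029350* (log2 fold change -0.95, adjusted p = 8.64e-05), *Medtr4g016510* (-0.38, 0.0106) and *Medtr2g014650* (-0.48, 0.0278) were lower in LD at ZT2 by the edgeR QL test, and *Medtr4g097590* was higher (0.55, 0.000457). The call of *Medtr4g016510* was lost without replicate 3 of SD (0.0511 in edgeR, range 0.00286 to 0.0511). That of *Medtr2g014650* was lost without replicate 3 of SD (0.0919 in edgeR), without replicate 1 of LD (0.0905 in edgeR), in the fit of all 18 libraries and with DESeq2 (0.139), with a range of 0.0184 to 0.139.

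By identifier, 40 members (23%) lie on chromosome 4, which holds 15.9% of the genes tested at ZT2, and 13 (7.47%) on chromosome 2, which holds 11.2%. The other chromosomes held from 9 to 28 members each, and 3 identifiers are not placed on a chromosome. In 4 cases a member's identifier adjoins that of another member. A pair of members, *Medtr7g012870* and *Medtr0287s0050*, both for an LYR family protein of complex 1, had the same TPM in each library within 0.1%, so they may be copies between which reads cannot be told apart and count as 1 signal.

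Libraries of a group overlapped between the photoperiods for 2 members at ZT0. The vacuolar sorting gene *Medtr5g026090* had 0.0368, 0.0787 and 12.7 TPM in LD and at most 0.038 TPM in SD at ZT0, and 0.0412, 0.0327 and 0.0261 TPM in LD and 8.58, 0.0219 and 0.0211 TPM in SD at ZT4. Its membership therefore rests on 1 library at each time. A lipoxygenase gene (*Medtr8g018690*) had 28.7, 76.7 and 14.3 TPM in LD and 12.7, 12.1 and 18.6 TPM in SD at ZT0. Among replicates, SD replicate 2 was the lowest SD library at ZT0 for 124 of 174 members, by a median log2 of -0.14 relative to its group mean, and LD replicate 2 the lowest LD library for 89.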

How the data were processed

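RNA was extracted from pooled leaves of 18 samples in 6 groups. Per the paper, the authors trimmed reads with BBDuk, quantified them with Salmon 0.8.2 against the Mt4.0v2 transcripts and summed transcripts per gene with tximport. The authors deposited estimated counts with no scaling, and TPM per gene, which sums to 1000000 per library. Groups come from the labels. Genome coordinates and sequences were not used here.

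The members and lists were chosen with earlier results of these data known. The rule used mean TPM with a pseudocount of 1. Estimated counts were rounded and tested in R 4.3.3 with edgeR 4.0.16, as the contrast of LD with SD in the 6 libraries of ZT2 (TMM scaling, total count above 1, quasi-likelihood F test, threshold 0.05, adjusted over the 3 timepoints together). Steps were tested on simulated data. A group at or below 3 counts in each library was taken as at the floor. This held for 4 members in SD at ZT0, 2 in SD at ZT2 and 1 in LD at ZT2. Those in SD at ZT0 include *MtCOLe*, *Medtr3g462220* and *Medtr4g082900*, so the size of their d at ZT0 is uncertain. Gene descriptions come from the study's supplementary annotation. Genes named are candidate members, the 10 most abundant, the 5 with the largest drop in d, the 3 highest and 3 lowest at ZT2 among calls, regulators by annotation and those at the thresholds, with others named by role after their values were seen. Alternatives were DESeq2 1.42.0, other size factors, filters, pseudocounts and thresholds, a length offset, a replicate block, 1 fit of all libraries, and each library left out.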

Additional observations from a re-analysis of the deposited data

How the results depend on the processing

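The number of members depends on how low abundances are treated. A pseudocount of 0.1 gave 413 genes, among them all 174, while a pseudocount of 5 kept 76 of the 174 and a threshold of 1.5 kept 62. With TMM-scaled CPM it was 159, of which 142 were shared, and with the median of replicates 175, of which 155 were shared. Leaving out each library of ZT0 and ZT4 in turn gave 165 to 184. At ZT2, members called higher in LD numbered 38 to 47 and those called lower 53 to 66 over all alternatives, and none was called in the direction opposite to that reported. DESeq2 called 95 members, 94 of them shared. Same-numbered LD and SD libraries at ZT2 had correlations of 0.083, 0.085 and 0.20 in their deviations from the group means, each higher than with the other numbers, but the labels give no shared source and the numbers were not taken to pair samples. With the replicate block, 110 members were called (47 higher, 63 lower), all 104 included, and of the 27 members named by the stated rule, which leaves out those named by role, 24 were called with and without the block. Of these 27, 21 to 24 were called with each ZT2 library left out in turn. Depth limits the 10 members with fewer than 10 counts on average at ZT2.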
